A study of Mus musculus with 272 samples.

Results

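The 10 genes described here are the members of the subcortical maternal complex, Nlrp5, Ooep, Tle6, Khdc3 and Zbed3, with Padi6 and 4 further Nlrp genes of the oocyte, Nlrp2, Nlrp4f, Nlrp14 and Nlrp9b. They were chosen by name, and each was found once among the 15854 gene symbols of the deposited table. In the study, lysates of mouse oocytes and embryos before implantation were separated by ribosome load at 8 stages: the germinal vesicle (GV) oocyte, the metaphase II (MII) oocyte, the zygote, the 2-cell, 4-cell and 8-cell embryo, the morula and the blastocyst. All groups were untreated; the labels give no strain, age or genotype, and each sample pools many oocytes or embryos. Each stage has 4 transcriptome libraries from pools of 20 oocytes or embryos and 3 gradients, lettered A to C, from lysates of about 100. The lysates were made with cycloheximide, which holds ribosomes on transcripts, and were spun through sucrose gradients of 10 to 40%. Each gradient was cut into 10 fractions, and the poly(A) RNA of every fraction was sequenced, so that each gene has 272 values.

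The subcortical maternal complex is a large protein assembly under the membrane of the oocyte that persists in the early embryo, and most of its subunits are needed in the mother for her embryos to pass the first cleavages. NLRP5 (also called MATER), OOEP (FLOPED), TLE6 and KHDC3 (FILIA) form its core, and ZBED3, NLRP2 and NLRP4F are tied to it. PADI6 is needed for the cytoplasmic lattices, fibres that fill the oocyte and store maternal proteins. The Nlrp genes expressed in oocytes belong to the NOD-like receptor family, other members of which are sensors of innate immunity. Maternal transcripts are made during oocyte growth, are translated or stored, and are largely removed by the time the embryo transcribes its own genome.

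Ooep, Khdc3 and Nlrp9b are shown by the bases before their start sites. Ooep and Khdc3 were the 2 genes of the set that rose again in the embryo. Nlrp9b, which like the rest of the set did not, was the only member besides Ooep in which TAATTG, described below, was found. The sequences are from RefSeq, build GRCm38.p6, read 5′ to 3′ on the gene's strand, each ending at the base before the start site, except that Ooep is shown from 250 to 138 bases before the start because the remaining bases lie within an annotated transcript. The Ooep stretch is chr9:78378726-78378838 on the minus strand, that of Khdc3 is chr9:73102148-73102397 on the plus strand, and that of Nlrp9b is chr7:20007773-20008022 on the plus strand. All 3 lie upstream of the gene's first exon. Capitals mark TAATTG on either strand (CAATTA in reverse), the core that the oocyte factor NOBOX is known to bind, and CANNTG, the palindromic E-box that FIGLA and other basic helix-loop-helix factors bind.
Ooep: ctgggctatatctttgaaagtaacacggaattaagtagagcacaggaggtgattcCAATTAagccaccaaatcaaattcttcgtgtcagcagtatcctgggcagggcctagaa
Khdc3: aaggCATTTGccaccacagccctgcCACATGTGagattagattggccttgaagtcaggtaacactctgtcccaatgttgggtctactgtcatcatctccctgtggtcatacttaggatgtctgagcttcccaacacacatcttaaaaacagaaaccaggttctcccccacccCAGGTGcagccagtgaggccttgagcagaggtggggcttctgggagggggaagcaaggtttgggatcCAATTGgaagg
Nlrp9b: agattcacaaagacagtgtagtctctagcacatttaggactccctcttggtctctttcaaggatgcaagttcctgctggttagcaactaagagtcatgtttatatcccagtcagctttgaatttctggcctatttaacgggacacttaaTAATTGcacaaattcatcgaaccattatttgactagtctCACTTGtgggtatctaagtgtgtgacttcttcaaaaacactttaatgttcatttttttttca
TAATTG stood 195 bases before the start of Ooep, in reverse, and 101 bases before that of Nlrp9b, and in none of the other 7 members with a promoter entry. It was present in 7.17% of 32851 promoter windows of 250 bases. Khdc3 held 5 CANNTG matches, overlapping ones included, the most of any member window. CANNTG was present in 8 of 9 members, in all but Nlrp2. Some members have several windows, and each window of these 8 members held a match. Counted by window and not by gene, 66.2% of all windows held it. The match of Ooep lies in the bases before its start that are not shown. Nlrp14 had no promoter entry. A match describes the letters only.

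The 3′ ends are shown for 4 members whose gradient levels moved apart from their transcriptome levels or dropped most between the 2-cell and 4-cell stage. Each is a stretch of 30 bases that ends with the polyadenylation hexamer (AATAAA or ATTAAA), read from 1 GENCODE M21 transcript per gene. Capitals mark the hexamer and, where present directly before it or overlapping it, a cytoplasmic polyadenylation element (TTTTAT or TTTTAAT), which recruits CPEB1 in maturing oocytes.
Khdc3: tgcaaacacaatttaaagtattctAATAAA
Padi6: atgtaaacaaattgccatagagccAATAAA
Zbed3: ttgcaacactccttttttttTTTTAATAAA
Nlrp4f: aattgctgctgttttgtgTTTTATATTAAA
In Zbed3 the element TTTTAAT shares its last 3 bases with the hexamer. Zbed3 and Nlrp4f were the 2 of 10 members with either element in the last 100 bases of the transcript, searched on the transcript strand, against 17.9% of 13438 genes. A hexamer was found in 8 of 10 members, in all but Ooep and Nlrp14, against 77.7% of genes.

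Levels are given in CPM, a gene's reads per 1 M reads of its library, with no correction for length. Transcriptome libraries held 11.2 to 24.3 M reads and fraction libraries 0.0102 to 43.2 M, of which those of fractions 2 to 10 held at least 0.996 M. Summed over the 7 oocyte markers, GV transcriptomes reached 25078 to 28078 CPM, and blastocysts 7.67 to 12.9 CPM. The 5 markers of the 2-cell embryo summed to 2061 to 2859 CPM at that stage and the 8 of the blastocyst to 2480 to 3029 CPM at theirs. Of 14 markers of cumulus and granulosa cells, which surround the oocyte, 6 were in the table; their sum was 42.8 to 51.8 CPM in GV oocytes, 66.2 to 75.9 in MII oocytes, 55.8 to 64.0 in zygotes and at most 21.8 from the 2-cell stage on. This sum was higher in MII oocytes and zygotes than in GV oocytes and lowest from the 2-cell stage on; its part in the members' changes was not tested. CPM is a share of a library: less RNA of a gene per embryo, more RNA of other genes and fewer cells cannot be told apart in pooled samples. Both kinds of library captured poly(A) RNA, and tail length was not measured, so its part in a change of CPM is not known. Changes are differences of log2(CPM + 1), which understate the change of low genes, and a gene is said to have risen or fallen where limma's moderated test gave an adjusted p (Benjamini-Hochberg over 14642 genes in transcriptomes) under 0.05 and a change of at least 1. The labels do not say whether pools came from separate animals, so p-values measure the spread between these pools.

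All 10 transcripts were present in GV oocytes, and 9 of them were lower in blastocysts. Together the 10 genes made up 2.69% ± 0.143 of all CPM in GV oocytes (SD, n = 4) and 3.28% ± 0.243 in MII oocytes, against 0.0171% ± 0.00483 in 4-cell embryos and 0.107% ± 0.0206 in blastocysts. Between the 2-cell and 4-cell stage 8 members fell and 1 rose, where 64.8% of all genes were called. The median change of the 10 members was -5.07, while that of all genes was 0.02. From GV oocyte to blastocyst 9 members fell and Khdc3 rose, where 69.1% of genes were called; the members' median change was -8.53 and that of all genes 0.32.

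Nlrp5, whose protein is the scaffold of the complex, had GV levels of 1076, 1078, 1080 and 1135 CPM in libraries A to D. MII oocytes had 764, 1056, 823 and 945 CPM, all below the GV range, but the log2 change of -0.29 ± 0.30 (SE) did not pass the test (adjusted p = 0.44). Zygotes held 301, 366, 282 and 329 CPM, and 2-cell embryos 83.8, 84.6, 64.6 and 82.0 CPM in the libraries with column letters E to H. Each of these groups lay wholly below the one before it. The transcript fell by 1.48 ± 0.30 from MII oocyte to zygote (adjusted p = 0.0002), by 2.01 from zygote to 2-cell embryo and by 2.92 from 2-cell to 4-cell embryo (adjusted p = 5e-11). The level went on from 9.91 CPM ± 3.20 (SD, n = 4) in 4-cell embryos through 6.81 ± 4.86 in 8-cell embryos and 3.0 ± 1.70 in morulae to 0.806 ± 0.897 in blastocysts, where libraries of A to D held 2.14, 0.504, 0.334 and 0.244 CPM. The last step, a fall of 1.15, was not called without morula library A or B or with a pseudocount of 5.

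Ooep encodes the small subunit of the core, which has a KH-like domain. In GV oocytes its levels were 3053, 2767, 2847 and 2595 CPM, in MII oocytes 1427, 1424, 852 and 1216, and in zygotes 2766, 2622, 2747 and 2605. The MII libraries were below all others of these 3 stages, and zygote and GV libraries overlapped. Ooep fell by 1.22 ± 0.22 (SE) from GV to MII oocyte (adjusted p = 1.5e-05) and rose by 1.16 ± 0.22 from MII oocyte to zygote (adjusted p = 0.00013), where 6 members fell and Ooep was the only member of the set called higher. The fall was not called with edgeR or DESeq2 on recovered reads, where its size went down to 0.77, and the rise was not called under quantile normalization or without MII library C, where it was as small as 0.84. In 2-cell embryos the level was 309, 386, 288 and 338 CPM, and in 4-cell embryos 7.63, 12.4, 10.3 and 10.9 CPM, a fold of 32.1 between the means. It then rose again: morulae held 11.1, 18.0, 19.4 and 20.6 CPM and blastocysts 104, 91.4, 147 and 123 CPM. The rise from morula to blastocyst was 2.69 ± 0.22 (adjusted p = 3.8e-12), without overlap of the libraries, and brought the transcript to 4.13% of its GV mean.

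Tle6, the Groucho-family member of the core, fell at each step up to the 4-cell stage. GV oocytes held 1531, 1912, 1593 and 1904 CPM and MII oocytes 469, 343, 353 and 305 CPM. Zygotes had 154, 242, 143 and 163 CPM and 2-cell embryos 72.1, 37.5, 44.3 and 47.9 CPM. None of these 4 groups overlapped with its neighbour. The falls were 2.25 ± 0.32 (SE, adjusted p = 1.5e-07), 1.08, 1.79 and 3.04 on the log2 scale for the 4 steps; that from MII oocyte to zygote was not called under quantile normalization or without MII library A or zygote library C. From the 4-cell stage on the mean stayed between 3.76 and 5.44 CPM, with no further call.

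Khdc3, a KH-domain protein known for its part in genome stability of early embryos, had the opposite course in the embryo. GV oocytes held 134, 132, 135 and 121 CPM, MII oocytes 26.9, 23.2, 13 and 14.6, and zygotes 6.31, 4.74, 7.06 and 5.17. The lowest means were 5.82 CPM ± 1.06 (SD, n = 4) in zygotes and 6.0 ± 2.36 in 2-cell embryos, and these groups overlapped. Khdc3 fell by 2.74 ± 0.25 (SE) from GV to MII oocyte (adjusted p = 9.5e-12), the largest fall of the set at that step, and by 1.54 to the zygote. Then 4-cell embryos held 14.1, 43.7, 29.3 and 20.7 CPM, 8-cell embryos 42.8, 39.7, 44.2 and 29.1, morulae 238, 167, 243 and 290, and blastocysts 829, 762, 890 and 1209. The libraries of morulae lay above all of 8-cell embryos, and those of blastocysts above all of morulae. The rises were 1.94 ± 0.25 from 2-cell to 4-cell embryo (adjusted p = 1.1e-08), 2.55 ± 0.25 from 8-cell embryo to morula (adjusted p = 2.1e-09) and 1.97 ± 0.25 to the blastocyst (adjusted p = 4.3e-08). Each of the 3 rises passed the test in all alternatives run, with the smallest size 1.47. The blastocyst mean was 708% of the GV mean.

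**Figure D1:**
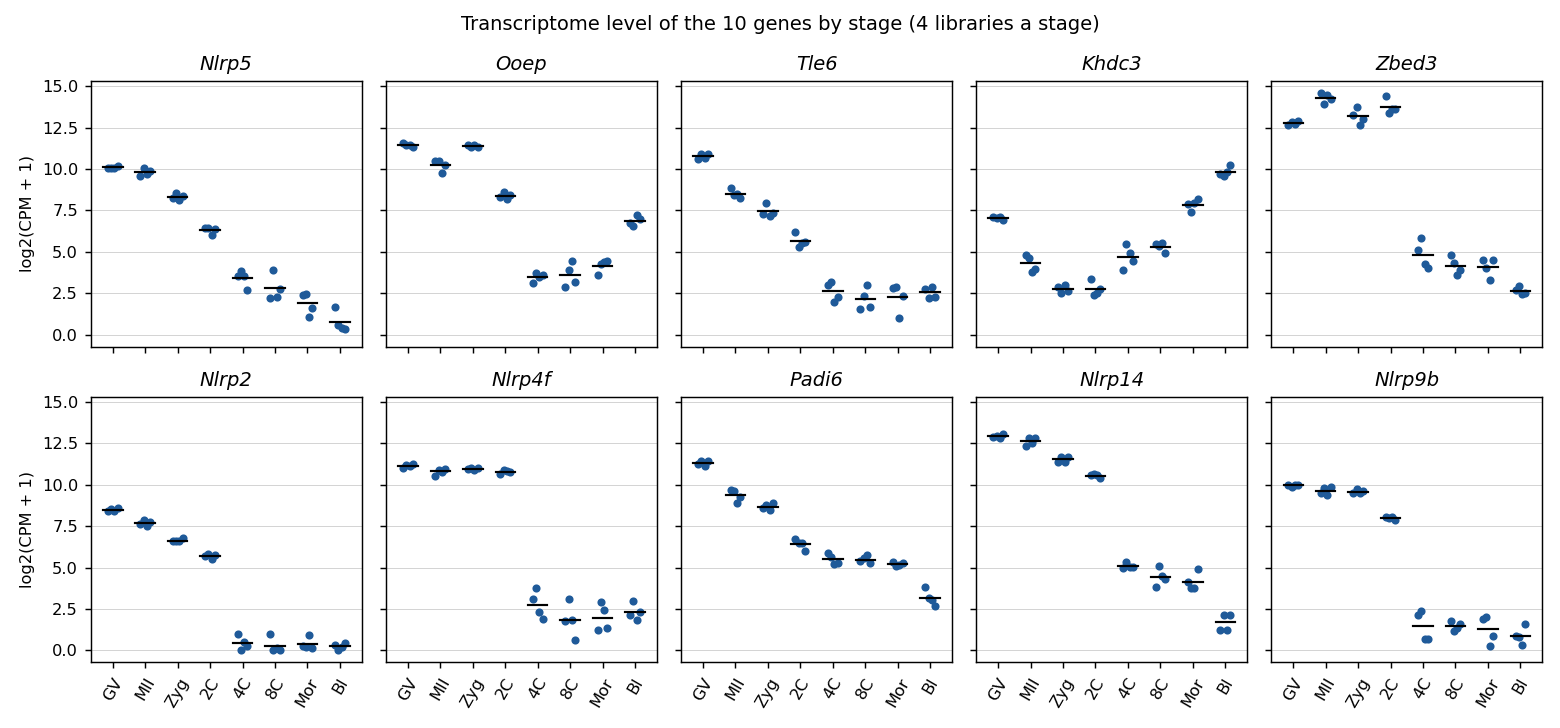
Transcriptome level of each gene, log2(CPM + 1), by stage from GV oocyte to blastocyst; points are the 4 libraries of a stage and bars their means. Khdc3 reached 923 CPM in blastocysts and Ooep 116 CPM, while the other 8 means were between 0.198 and 8.48 CPM there.

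Zbed3, a zinc finger protein that binds Axin in Wnt signalling, was the transcript of the set with the highest level per kilobase of exon from GV oocyte to 2-cell embryo. GV oocytes held 6547, 7396, 6816 and 7601 CPM and MII oocytes 24534, 15812, 22310 and 18797 CPM, without overlap. This rise of 1.5 ± 0.29 (SE, adjusted p = 4e-05) was the only one of the set at that step, where 4 members fell and 34.5% of all genes were called. In MII oocytes Zbed3 had the highest mean CPM of all symbols, and the highest per kilobase of exon. Zygotes had 9691, 13986, 6351 and 8367 CPM, a fall of 1.12 that was not called without zygote library C, and 2-cell embryos 21620, 10459, 12491 and 12464 CPM, where the groups overlapped. By the 4-cell stage 33.3, 55.1, 18.0 and 15.3 CPM remained. This fall of 8.95 ± 0.29 (adjusted p = 9e-25) was the largest of the set between consecutive stages and amounted to a fold of 469 between the means.

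Nlrp2 and Nlrp4f, whose proteins are also tied to the complex, took different courses up to the 2-cell stage, and both fell from there to the 4-cell stage. Nlrp2 stepped down from 359 CPM ± 22.8 (SD, n = 4) in GV oocytes to 208 ± 21.3 in MII oocytes, 98.7 ± 6.29 in zygotes and 50.8 ± 4.76 in 2-cell embryos. Of these steps the fall of 1.06 from MII oocyte to zygote was called, and was lost under quantile normalization and with DESeq2. In 4-cell embryos 0.980, 0, 0.429 and 0.203 CPM were left, 31 reads in the 4 libraries together, a fall of 5.25 ± 0.21 (SE, adjusted p = 2.8e-22). Nlrp4f instead held its level: 2273 CPM ± 151 in GV oocytes, 1807 ± 229 in MII oocytes, 1994 ± 50.6 in zygotes and 1606, 1925, 1837 and 1772 CPM in the 4 libraries of 2-cell embryos, with changes of at most 0.34 in size and none called. The 4-cell libraries held 7.58, 12.5, 4.02 and 2.68 CPM. Nlrp4f fell by 8.03 ± 0.35 (adjusted p = 3.3e-21), which is a fold of 267 between the means.

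Padi6, the peptidylarginine deiminase of the oocyte, fell from 2459, 2788, 2287 and 2782 CPM in GV oocytes to 839, 807, 484 and 613 CPM in MII oocytes. The groups did not overlap, and the fall was 1.94 ± 0.19 (SE, adjusted p = 7e-11). A second fall, of 2.25 ± 0.19, came between zygotes, at 411 CPM ± 54.4 (SD, n = 4), and 2-cell embryos, at 86.6 ± 17.6. Padi6 was the member that changed least from the 2-cell to the 4-cell stage, to 45.3 CPM ± 9.61. Its log2 change of -0.92 was under the size threshold (adjusted p = 5.1e-05). Padi6 was called lower at this step in 5 of 15 alternatives, among them edgeR, DESeq2 and quantile normalization, with changes from -1.17 to -0.81. It stayed near 44.3 CPM in 8-cell embryos and 36.0 ± 2.59 in morulae and fell by 2.02 to 8.48 ± 3.33 in blastocysts (adjusted p = 8.2e-11).

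Nlrp14, known to be needed in the mother for early cleavage, stood at 7782 CPM ± 536 (SD, n = 4) in GV oocytes and 6461 ± 999 in MII oocytes. It fell by 1.11 to 2987 ± 356 in zygotes, a call lost under quantile normalization. Its level was 1515 ± 112 CPM in 2-cell embryos and 30.6, 40.3, 31.8 and 31.4 CPM in the 4-cell libraries, a fall of 5.46 ± 0.22 (SE, adjusted p = 4.5e-22). It fell once more, by 2.45, from 17.8 CPM ± 7.70 in morulae to 2.42 ± 1.21 in blastocysts. Nlrp9b kept 998 CPM ± 36.2 in GV oocytes, 798 ± 128 in MII oocytes and 771 ± 56.5 in zygotes, with no call. It fell by 1.60 to 254 CPM ± 15.6 in 2-cell embryos and by 6.54 ± 0.31 to 3.35, 4.11, 0.589 and 0.608 CPM in 4-cell embryos (adjusted p = 4.1e-20). Nlrp9b has close paralogs, Nlrp9a and Nlrp9c, as Nlrp4f has in the Nlrp4 genes. How reads that match several copies were counted is not given in the sources used here, so the level of each copy is uncertain.

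The members were thus called at different steps. From GV to MII oocyte 1 rose and 4 fell. From MII oocyte to zygote 1 rose and 6 fell, with 10.3% of genes called, and from zygote to 2-cell embryo 5 fell, with 33.9% called. From 4-cell to 8-cell embryo none was called (2.6% of genes). From 8-cell embryo to morula Khdc3 rose (11.9% of genes), and from morula to blastocyst Khdc3 and Ooep rose and Nlrp5, Zbed3, Padi6 and Nlrp14 fell (26.8% of genes). Under quantile normalization the calls from MII oocyte to zygote went from 7 to 3, those of Nlrp5, Khdc3 and Zbed3.

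Between genes, levels were compared per kilobase of exon (GENCODE M21). In GV oocytes the order was Zbed3 at 3178 CPM per kilobase, Nlrp14 at 2200, Ooep at 1317, Padi6 at 1051, Tle6 at 778, Nlrp4f at 600, Nlrp5 at 310, Nlrp9b at 268, Nlrp2 at 106 and Khdc3 at 63.6. No neighbours in this order overlapped in their 4 libraries. In MII oocytes Zbed3 led with 9127 CPM per kilobase, Nlrp14 followed with 1827, and Nlrp2, at 61.0, and Khdc3, at 9.47, came last. Between them Ooep overlapped with Nlrp4f, Padi6 with Nlrp5, Nlrp5 with Nlrp9b and Nlrp9b with Tle6. In blastocysts Khdc3 was at the top with 450 CPM per kilobase, then Ooep with 54.4, both apart from the gene after them. The 8 others, from Padi6 at 3.45 down to Nlrp2 at 0.0580, overlapped with their neighbours.

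The stage pattern of each gene was compared with the median of the 10 members over the 8 stage means of log2(CPM + 1). Pearson's r was between 0.912 for Ooep and 0.992 for Nlrp2 in 9 members, and -0.471 for Khdc3. Each member is itself part of this median, which raises its r in advance. Among 6100 genes with a mean of at least 50 CPM at a stage, the 5 most like the median outside the set were Fbxw18 (r = 0.998), Fbxw16, Fbxw19, Aass and Ccdc115 (r = 0.994). The first 3 are oocyte F-box genes. Fbxw18 went from 5175 CPM in GV oocytes to 142 in 2-cell and 1.65 in 4-cell embryos. Within the set, Nlrp2 and Nlrp9b were the most alike (r = 0.992), and Khdc3 and Zbed3 the least (r = -0.668). Among the 6100 genes, Nlrp2 ranked 10 and Ooep 821 by r to the median. Many genes outside the set were thus as like the median as some members. These r describe 8 points from shared libraries.

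Related genes gave the frame for these changes. Of 14 other genes of the NOD-like receptor family in the table, 4 rose and 6 fell from the 2-cell to the 4-cell stage, where 64.8% of all genes were called, with a median change of -0.47; Nlrp9c fell by 8.99, Nlrp9a by 8.13 and Nlrp4e by 7.78. Among 11 tested paralogs of the members outside the Nlrp family, 1 rose and 3 fell at that step, against the same 64.8%; Khdc1b, a relative of Khdc3, fell by 4.66, Tle5 by 2.63 and Tle1 by 1.63. From GV oocyte to blastocyst 6 of these 11 rose and 1 fell, where 69.1% of all genes were called, with Tle3 higher by 4.78 and Padi3, a paralog of Padi6, by 2.68. Of 13 genes whose proteins are tied to the complex or the lattices, 1 rose and 9 fell from the 2-cell to the 4-cell stage (median change -2.15; 64.8% of all genes called), led by the F-box genes Fbxw15, with a fall of 6.42, Fbxw24 and Fbxw18. From GV to MII oocyte 1 rose and 7 fell, where 34.5% of all genes were called, among them the tubulin genes Tubb4b, by 4.32, and Tubb5, by 3.87. Of 30 other maternal-effect genes 4 rose and 20 fell from the 2-cell to the 4-cell stage (median change -1.72; 64.8% of all genes called); Btg4, an adaptor of the deadenylase that removes maternal transcripts, fell by 9.30, and the oocyte growth factor Bmp15 fell by 8.75.

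Along the gradient the members stood at unlike positions. Fractions 1 to 5 were taken as the light side and 6 to 10, toward the bottom where transcripts with many ribosomes run, as the heavy side; the labels do not name them. The value of a side is the mean CPM of its 5 fractions. In GV oocytes Nlrp5 had heavy levels of 183, 395 and 237 CPM in gradients A to C against light levels of 28.0, 66.6 and 55.7. For Nlrp14 the heavy side held 812, 1485 and 1165 CPM and the light side 224, 446 and 223. In both, every heavy value was above every light one. The 5 Nlrp genes were higher on the heavy side in 15 of 15 gradient values in GV oocytes, in 15 of 15 in MII oocytes, in 14 of 15 in zygotes and in 12 of 15 in 2-cell embryos. The other 5 members were so in 8, 4, 5 and 4 of 15. Among them Khdc3 was higher on the heavy side in all 3 gradients of GV oocytes, of MII oocytes and of zygotes. The genes of a stage were read in the same 3 gradients, so these values are not independent. The 2-cell count includes Nlrp2 in gradient B, at 0.909 CPM on the heavy side against 0.903 on the light side. The share over all genes is not given for this count. The median difference of the sides over all genes, in log2(CPM + 1), was 0.08 in GV oocytes and -0.06 in MII oocytes. It was -0.04 in zygotes and -0.16 in 2-cell embryos. In the fit of all stages given below, no member was called in GV or MII oocytes.

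**Figure D2:**
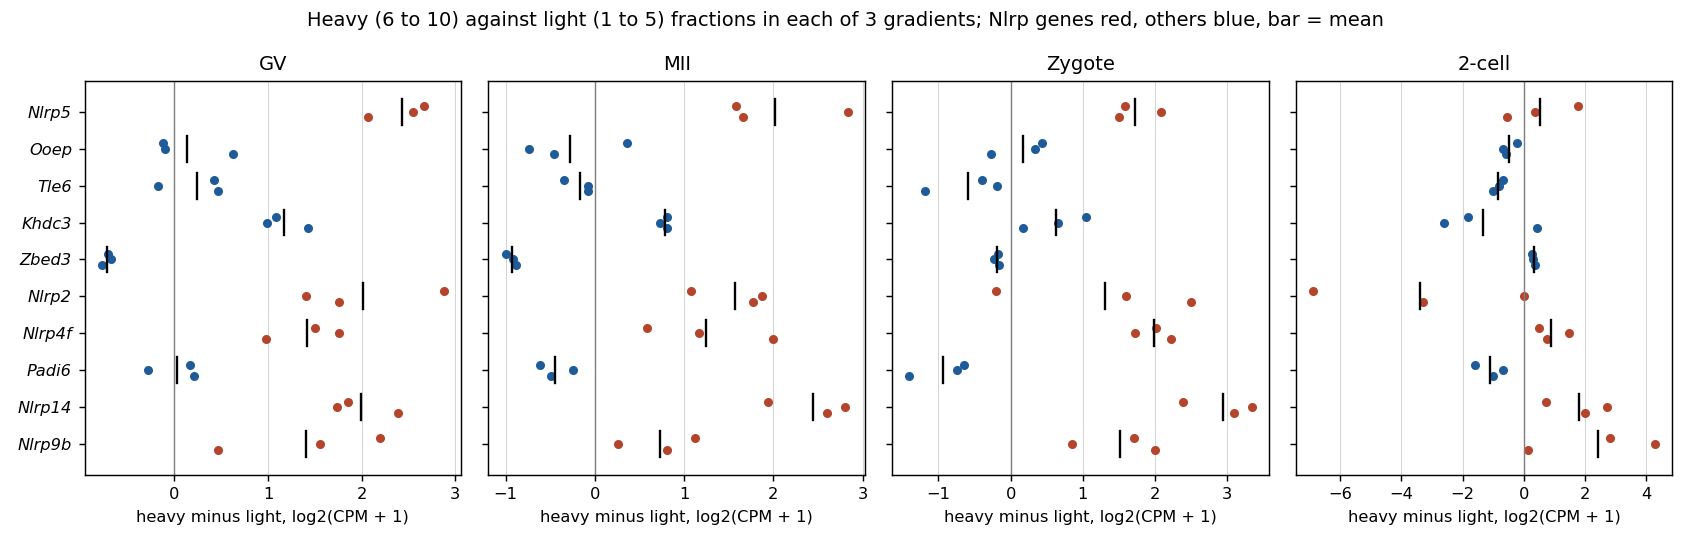
Heavy minus light level, as a difference of log2(CPM + 1), of each gene in each of 3 gradients at the first 4 stages; Nlrp genes are red, the others blue, and bars are means. In GV and MII oocytes all Nlrp points lie right of 0, and all Zbed3 points lie left of it.

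Zbed3 was on the opposite side in the oocyte and changed side by the 2-cell stage. Its GV heavy levels were 12261, 9096 and 9018 CPM against light levels of 20077, 14512 and 15430, and in MII oocytes 17532, 19811 and 17638 against 35102, 37285 and 32505. The light level was higher in each of these 6 gradients. In 2-cell embryos the heavy levels, 26147, 26312 and 24691 CPM, were all above the light ones, 21527, 21435 and 18928. In the tests of the sides given below, neither this difference nor its change from zygote to 2-cell embryo was called for Zbed3. Then 4-cell embryos had 442, 322 and 305 CPM on the heavy side and 1386, 1182 and 800 on the light side.

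The position was summed up as the mean fraction number weighted by CPM, in which each fraction counts by its CPM and not by its amount of RNA. In GV oocytes it was 7.83 ± 0.486 (SD, n = 3) for Nlrp5, 7.76 for Nlrp2, 7.57 for Nlrp14, 6.98 for Nlrp4f and 6.88 for Nlrp9b. Khdc3 stood between, at 6.62 ± 0.243, and Tle6, Padi6, Ooep and Zbed3 were at 5.79, 5.67, 5.46 and 4.86. The order changed when fraction 1 was left out. Ooep, at 6.34, was then above Tle6, at 6.10, and Padi6, at 6.01, and Nlrp14, at 8.44, was above Nlrp5, at 8.29. Padi6 peaked in fraction 3 in all 9 gradients of GV oocytes, MII oocytes and zygotes, and Zbed3 in fraction 3 in the 3 of GV oocytes. From GV oocyte to 2-cell embryo the mean fraction of Nlrp5 went from 7.83 through 7.47 and 7.11 to 6.16 and that of Padi6 from 5.67 through 5.23 and 4.94 to 4.62, while that of Zbed3 went from 4.86 and 4.75 to 5.39 and 6.0.

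**Figure D3:**
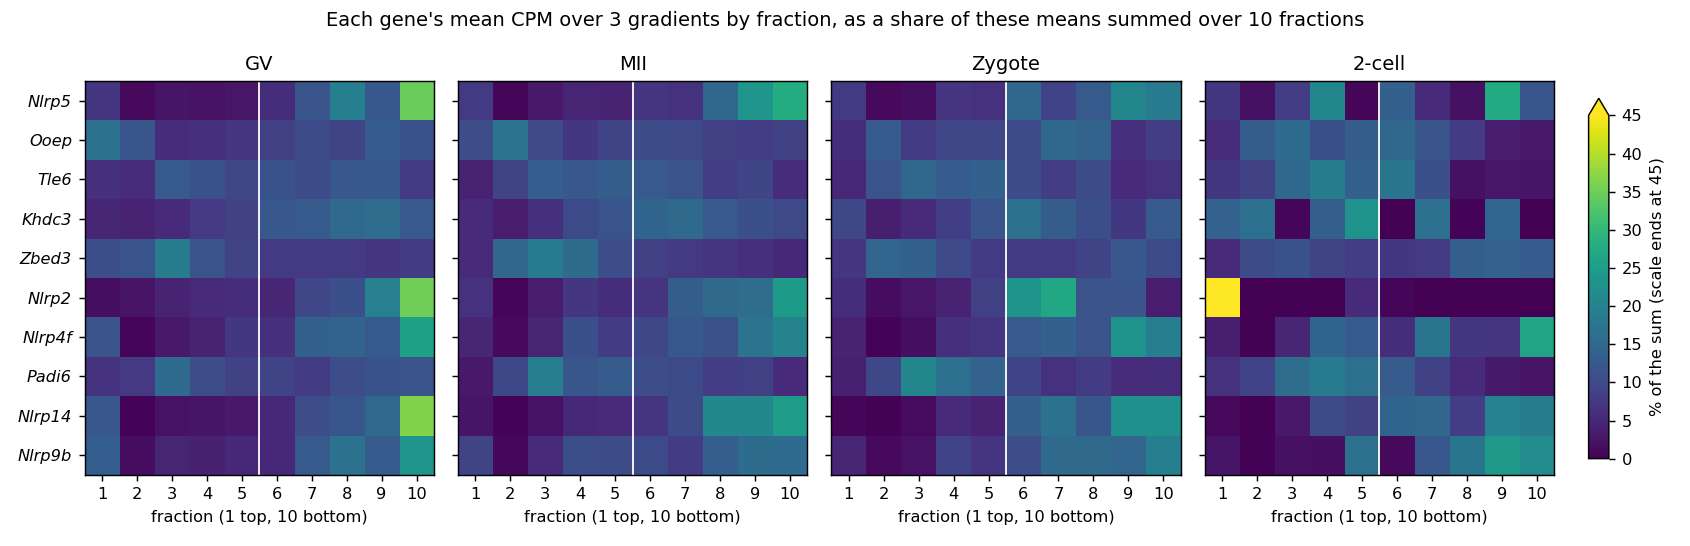
Mean CPM of each gene over 3 gradients in each fraction, as a share of these means summed over the 10 fractions, at the first 4 stages; the white line parts light from heavy. The Nlrp genes are brightest at fractions 8 to 10 in GV oocytes, and Padi6 and Zbed3 at fraction 3; the scale ends at 45%, and Nlrp2 in fraction 1 of 2-cell embryos is above it, at 93.4%, or 22.8% without gradient A.

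Within the set, members with a longer coding sequence mostly had a higher mean fraction. The 5 Nlrp genes have 936 to 1110 codons, and Ooep and Zbed3 have 163 and 227. All Nlrp genes are longer than all other members, so length and gene family cannot be told apart in this set. Over the 10 members, r between the log2 coding length and the mean fraction was 0.83 in GV oocytes, 0.80 in MII oocytes and 0.62 in zygotes. Over all genes with a mean of at least 10 CPM it was 0.28, 0.26 and 0.29 (6674, 5602 and 5590 genes), and their median mean fraction was 5.81, 6.13 and 6.10. These r describe genes measured in the same libraries. A longer coding sequence has room for more ribosomes, so position does not compare ribosomes per length between genes. Padi6, at 681 codons, lay at lower fractions than the shorter Khdc3, at 439 codons, in all 3 stages.

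**Figure D4:**
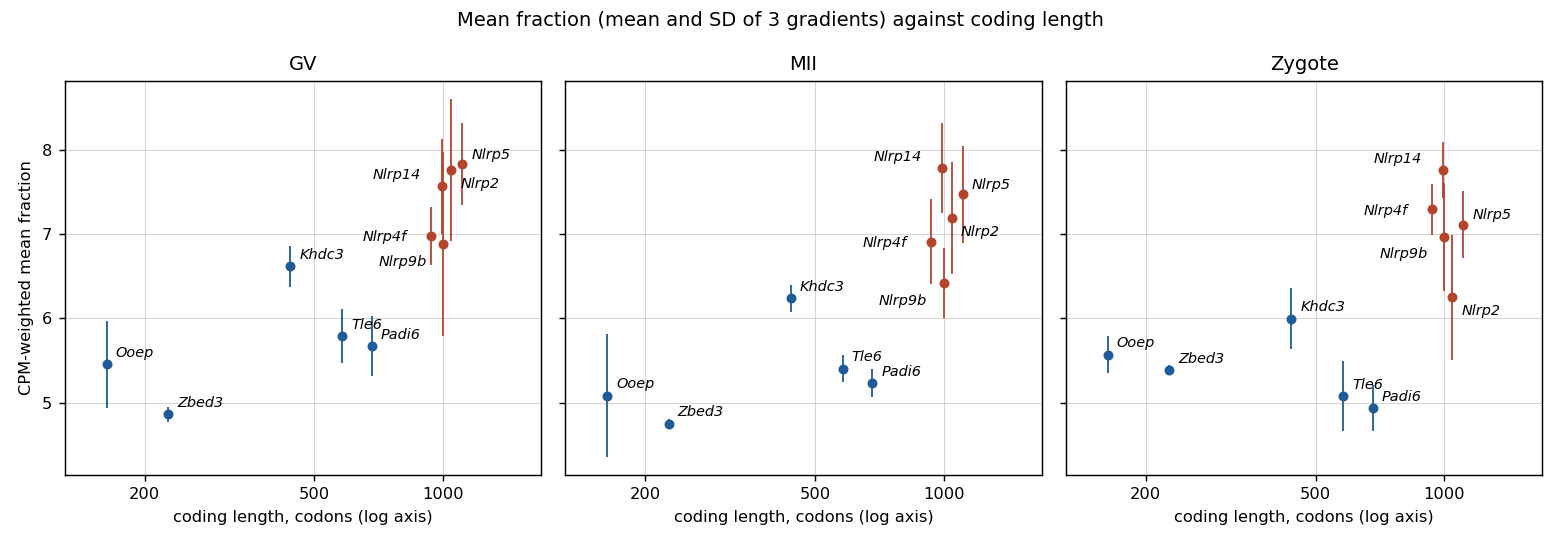
CPM-weighted mean fraction (mean and SD of 3 gradients) against coding length in codons, on a log axis, for GV oocytes, MII oocytes and zygotes; Nlrp genes are red. The 5 Nlrp genes, with 936 codons or more, are at the upper right in each panel, and Zbed3 is at 4.86 in GV oocytes.

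The difference between the sides was tested in 1 fit of 48 means with limma. In GV oocytes none of the 10 members was called (0.0725% of genes), with differences from -0.72 for Zbed3 to 2.43 ± 0.93 (SE) for Nlrp5, whose adjusted p was 0.62. In MII oocytes none was called either (3.23% of genes). In zygotes Nlrp14 was higher on the heavy side by 2.94 ± 0.84 (adjusted p = 0.042, 3.01% of genes). This call was lost when any zygote gradient was left out, with edgeR and with a pseudocount of 0.5. It was also lost with fractions 8 to 10 as the heavy side or fractions 2 to 5 as the light side. The main fit gives all stages the same spread. When only the 3 gradients of a stage were fitted, Nlrp5, Nlrp2, Nlrp4f, Nlrp14 and Khdc3 were higher on the heavy side in GV oocytes (2.45% of genes called), Nlrp5, Nlrp2, Nlrp4f and Nlrp14 in MII oocytes (19.5%) and Nlrp5, Nlrp4f, Nlrp14 and Nlrp9b in zygotes (18.5%). With the gradient as a block, Nlrp4f was called as well in zygotes, with a difference of 1.98.

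In later embryos most of the members called were lower on the heavy side, as were most of all genes called. Of all genes, 11.8% were called lower and 6.43% higher in 2-cell embryos, and 12.9% and 3.4% in 4-cell embryos. In 8-cell embryos these shares were 6.62% and 2.43%, and in morulae 4.17% and 1.64%. In 2-cell embryos Nlrp2 (-3.39) and Padi6 (-1.09 ± 0.39, adjusted p = 0.044) were lower on the heavy side and Nlrp9b (2.42) was higher, with 18.2% of genes called. The Nlrp2 value rests on gradient A, whose light level was 117 CPM against 0.903 and 8.71 in B and C and without which the call was lost; fraction 1 held up to 585 CPM in 1 library, and without fraction 1 the call was lost as well. In 4-cell embryos 5 members were lower on the heavy side (16.3% of genes): Nlrp5 by 4.33 ± 0.93 (SE, adjusted p = 0.001), Nlrp4f by 2.15, Ooep by 2.07, Zbed3 by 1.64 and Padi6 by 1.45. Nlrp5 had heavy levels of 0, 1.77 and 4.25 CPM there and light levels of 92.6, 16.5 and 71.1. In 8-cell embryos Ooep (-2.49), Padi6 (-1.68) and Zbed3 (-1.54) were lower and Khdc3 (1.84 ± 0.59, adjusted p = 0.043) was higher on the heavy side, with 9.05% of genes called. With the gradient as a block, Nlrp4f (-2.08) was called as well at the 8-cell stage (adjusted p = 0.014). Leaving out 1 gradient ended several of these calls: in 2-cell embryos that of Padi6 without any of the 3 and that of Nlrp9b without A or B, in 4-cell embryos that of Ooep without C, of Nlrp4f without B or C and of Padi6 without A, and in 8-cell embryos those of Zbed3 and Padi6 without A and of Khdc3 without A or B. When only the gradients of a stage were fitted, no member was called at the 2-cell, 4-cell or 8-cell stage (1.9%, 0.0% and 2.55% of genes), and Nlrp2 was not tested at the 2-cell stage. In morulae Zbed3 was lower by 2.54 ± 0.36 (adjusted p = 3.4e-06; 5.81% of genes), which held in 14 of 14 alternatives, and in blastocysts no member was called (2.74% of genes). Khdc3 was higher on the heavy side by 1.68 in morulae (adjusted p = 0.0951) and by 1.66 in blastocysts (adjusted p = 0.17), and was called in 5 of 14 and 4 of 14 alternatives. Fitted on its own stage, Khdc3 had an adjusted p of 0.00445 in morulae (14.7% of genes called) and of 0.000101 in blastocysts (21.7%). Zbed3 was called by that fit at both stages.

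The change of this difference between consecutive stages was tested as well. No member was called from GV to MII oocyte (0.185% of genes), from MII oocyte to zygote (0.0198%), from 4-cell to 8-cell embryo (2.47%), from 8-cell embryo to morula (0.534%) or from morula to blastocyst (0.0198%). From zygote to 2-cell embryo Nlrp2 moved toward the light side, with a change of -4.69 ± 1.21 (SE, adjusted p = 0.017; 4.65% of genes), lost without 2-cell gradient A, without zygote gradient B or C and without fraction 1. From the 2-cell to the 4-cell stage Nlrp5 (-4.86) and Zbed3 (-1.96 ± 0.51, adjusted p = 0.0096) moved toward the light side and Khdc3 (2.93) toward the heavy side, with 11.7% of genes called. With the gradient as a block, Ooep (-1.59) and Nlrp4f (-3.06) were called at that step too. When only the groups compared were fitted, none of the 4 calls was kept. Without 2-cell gradient A or 4-cell gradient A the Nlrp5 call was lost, and without 2-cell or 4-cell gradient B that of Khdc3.

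The heavy level itself changed as follows, tested over 14524 genes. From GV to MII oocyte Ooep rose by 3.0 ± 0.57 (SE, adjusted p = 0.0028), the only member called, with 4.06% of genes called; this was lost when the heavy side was fractions 8 to 10. From MII oocyte to zygote Khdc3 fell by 2.43 ± 0.52 (adjusted p = 0.016; 1.49% of genes), which was lost with edgeR and without MII gradient C or zygote gradient B or C. From zygote to 2-cell embryo 5 members fell (20.8% of genes): Khdc3 by 4.10, Nlrp2 by 3.61, Tle6 by 2.59, Padi6 by 2.27, and Ooep fell by 2.26. The call of Ooep was lost with fractions 8 to 10 and that of Nlrp2 with edgeR. The heavy Khdc3 level dropped there from 53.5, 47.2 and 40.3 CPM to 0.170, 1.00 and 8.19 CPM. All-gene medians differed between scalings at this step, -0.51 as tested and -0.01 under quantile normalization, and these 5 members fell under both.

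From the 2-cell to the 4-cell stage 6 members fell on the heavy side and 1 rose, with 37.8% of genes called and a median change of -5.29 against -0.06 over all genes. Nlrp4f fell by 9.22 ± 0.66 (SE, adjusted p = 1.2e-09), Nlrp14 by 6.96, Nlrp9b by 6.83, Zbed3 by 6.19, Nlrp5 by 5.43 and Ooep by 5.14. Nlrp4f had 674, 706 and 1583 CPM on the heavy side of 2-cell gradients and 0, 0 and 2.57 in 4-cell ones. The heavy levels of Tle6, 1027, 104 and 317 CPM in 4-cell embryos, overlapped with those of 2-cell embryos, 456, 490 and 357 (change -0.41, adjusted p = 0.63), while its transcriptome level fell by 3.04. Padi6 had 370, 794 and 460 CPM on the heavy side of 2-cell gradients and 221, 271 and 322 in 4-cell ones, without overlap, a change of -0.93 that was under the size threshold (adjusted p = 0.04). The rise of Khdc3, by 3.26, was not called when only the groups compared were fitted (adjusted p = 0.0688). From 4-cell to 8-cell embryo no member was called (6.54% of genes). From 8-cell embryo to morula Zbed3 fell by 5.31, Nlrp14 by 3.56, Tle6 by 2.65 and Padi6 by 2.10, and Khdc3 rose by 3.91 ± 0.52 (adjusted p = 3.5e-05; 7.98% of genes). With fractions 8 to 10 as the heavy side, Nlrp14, Tle6 and Padi6 were not called at this step, and Padi6 was not when the log was taken per fraction. From morula to blastocyst no member was called (0.0757% of genes). In morulae all 15 heavy libraries held no read of Nlrp5, and from the 4-cell stage on no heavy library held a read of Nlrp2, so that no fold is given; 3 reads over the heavy libraries of morulae would be 0.00538 CPM.

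During maturation of the oocyte, the gradients and the transcriptomes moved in different directions for some members. Ooep had heavy levels of 1520, 1592 and 1837 CPM in GV gradients and 18290, 10374 and 11892 in MII gradients, while the light levels went from 1647, 1702 and 1189 to 14247, 17292 and 16397. On both sides every MII value was above every GV value, whereas the MII transcriptome libraries were all below those of GV oocytes. For Padi6 the heavy level went from 1972, 1552 and 2111 to 2904, 5742 and 3412 CPM and the light level from 1762, 1889 and 1829 to 4446, 6792 and 4813, again without overlap. Khdc3 held 265, 207 and 223 CPM on the heavy side of GV gradients and 211, 225 and 353 on that of MII gradients, which overlapped, while its transcriptome level fell by 2.74.

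The heavy change was therefore compared with the transcriptome change in 1 fit, a test added after these data had been seen. The heavy change exceeded the transcriptome change by 4.22 ± 0.57 (SE, adjusted p = 3.7e-07) for Ooep, by 2.98 ± 0.38 for Padi6 (adjusted p = 1.3e-07) and by 2.89 ± 0.54 for Khdc3 (adjusted p = 0.00013), with 8.22% of genes called. These 3 calls held in 23 of 23 alternatives. The other 7 members were not called, with Tle6 at 1.37 (adjusted p = 0.23) and the 5 Nlrp genes between -1.06 and 0.83. In the light fractions, also tested after these data had been seen, Ooep rose by 3.41 ± 0.34 (adjusted p = 1.2e-06), Padi6 by 1.53 and Zbed3 by 1.08 (6.64% of genes called). The Padi6 call was lost when any GV or MII gradient was left out, and that of Zbed3 without GV gradient B, with edgeR and under quantile normalization. Among the 13 genes tied to the complex or lattices the heavy change exceeded the transcriptome change in 3 and fell short in 1; Tubb4b exceeded it by 2.53 and the actin regulator Cfl1 by 1.90.

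Set against the transcriptome, the mean CPM over the 10 fractions was 0.562 times the transcriptome mean for Ooep in GV oocytes and 12 times in MII oocytes. For Padi6 these ratios were 0.718 and 6.83, for Khdc3 1.29 and 10.7 and for Tle6 3.17 and 9.40. The 5 Nlrp genes had ratios of 0.0933 to 0.332 in GV oocytes and 0.106 to 0.281 in MII oocytes. Both kinds of library are scaled to their own totals and both captured poly(A) RNA, so a ratio gives no share of RNA on ribosomes; tail length was not measured.

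**Figure D5:**
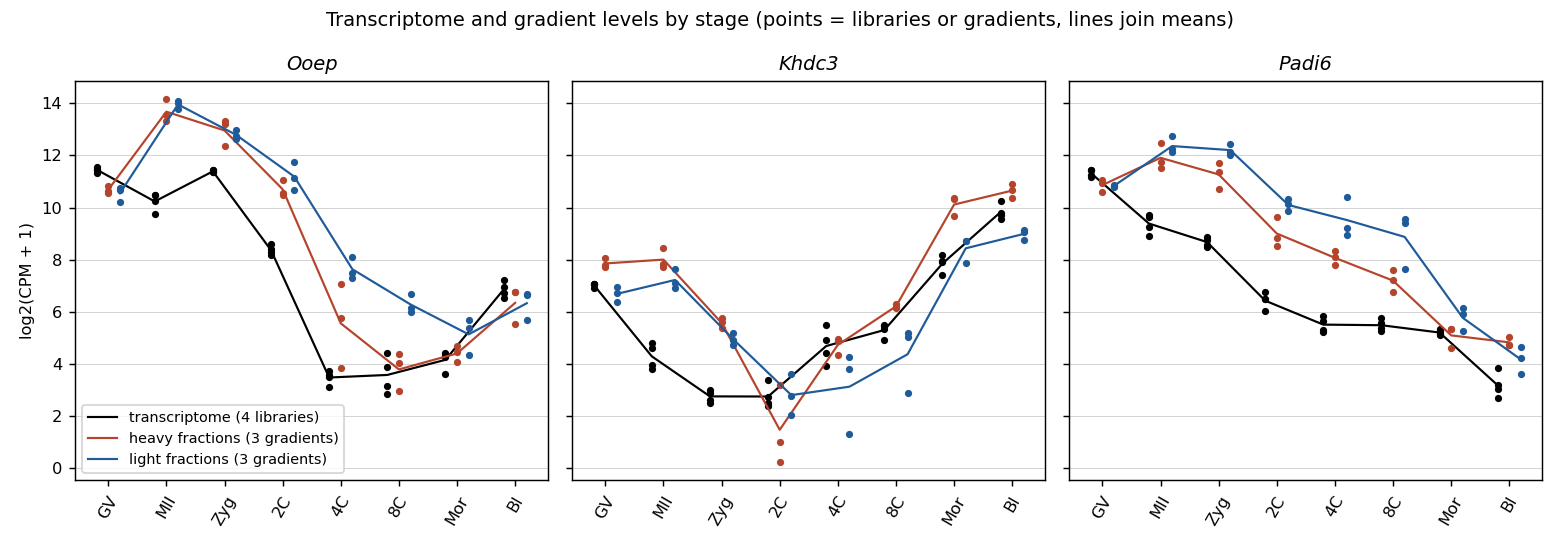
Transcriptome, heavy and light levels, log2(CPM + 1), of Ooep, Khdc3 and Padi6 by stage; points are libraries or gradients and lines join means. From GV to MII oocyte the transcriptome line of Ooep falls by 1.22 while the heavy line rises by 3.0, and Khdc3 climbs in all 3 measures from the 4-cell stage to the blastocyst.

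The embryonic rise of Khdc3 was present in the gradients too. Heavy levels of 19.4, 30.4 and 28.3 CPM at the 4-cell stage were followed by 77.2, 71.5 and 70.5 at the 8-cell stage, 813, 1270 and 1323 in morulae and 1337, 1923 and 1621 in blastocysts. Each group lay wholly above the one before it. The light levels in blastocysts were 433, 561 and 539 CPM, below every heavy value, and fraction 10 held the peak in each of the 9 gradients from the 8-cell stage to the blastocyst. The heavy-light difference was 1.68 in morulae and 1.66 in blastocysts (adjusted p = 0.17), which did not pass the test in the fit of all stages. With each of these 2 stages fitted alone, limma's adjusted p for Khdc3 was under 0.05, as given above. Its mean fraction was 7.47 ± 0.101 (SD, n = 3) in blastocysts against 6.62 ± 0.243 in GV oocytes. Ooep held 107, 45.1 and 107 CPM on the heavy side of blastocyst gradients and 99.4, 50.2 and 101 on the light side, against 25.0, 20.9 and 15.7 on the heavy side of morulae; the heavy change of 1.94 was not called (adjusted p = 0.33).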

How the data were processed

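The submitters' notes name Trim Galore 0.6.7, FastQC, HISAT2 2.2.1, featureCounts 2.0.1, edgeR and the build GRCm39, per the submitters' processing notes; strand and multiple hits are not given in the sources used here. The authors deposited 1 table of CPM per gene symbol and library. In 9 of its columns the deposited values have sums above the CPM total because of repeated symbols and were recorded as signal, scaled by the authors in the same way as CPM, and used as CPM. Of 15854 symbols, 159 in 76 groups had identical values, and 1 of each group was kept (15771). All values up to 1000 reads in the 272 libraries were whole multiples of 1 read within 0.05 reads, which gave the depth. Reads carry no molecular identifiers, so floors of 3 reads cover counting error only.

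limma 3.58.1 in R 4.3.3 (trend) tested log2(CPM + 1) over all genes with at least 1 CPM in 4 transcriptomes or 3 gradient means; all 10 members passed. All stages shared 1 fit, and p-values were adjusted by Benjamini-Hochberg over all genes tested. Alternatives used edgeR 4.0.16 and DESeq2 1.42.0 on recovered reads, other pseudocounts (0.5 and 5), quantile normalization and no filter. They also used other fraction limits, a replicate block and each library left out. In edgeR fits of the gradients, the reads of a side were summed over its fractions, so deeper fractions weighed more than in the mean CPM. These sums left out 1 library of 2-cell gradient B. The limma model of the transcriptomes was tested on simulated data for the step from GV to MII oocyte. The fits of the gradients were not tested in this way. Lengths, promoters and 3′ ends came from GENCODE M21 and RefSeq tables of GRCm38, an earlier build than that of the reads. Exon length replaced the coding length planned for levels, since no protein table was at hand. The 2-cell transcriptome columns are lettered E to H, unlike the labels. Replicate letters did not pair libraries across stages: r of same-letter deviations was -0.18 to 0.17 over 20 pairs of transcriptomes, 2 of them over 0.1. The heavy and light side of a gradient come from 1 lysate. No 2 replicates were alike within counting error (288 pairs).

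All members are named in each comparison; of the other lists, at most 3 genes with the largest change past the threshold; and the 5 genes most like the members' median. The members, lists and motifs were chosen with earlier results of these data known, and the tests of the heavy change beyond the transcriptome change and of the light change were added after the data were seen.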

Additional observations from a re-analysis of the deposited data

Results flagged for a closer look

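In 7 of 80 groups of 4 transcriptome libraries, 1 library stood apart from the other 3 by more than Dixon's 95% critical value; chance alone gives about 1 in 20. Nlrp5 had 1135 CPM in GV library D against 1076 to 1080 in the others, 64.6 CPM in 2-cell library G against 82.0 to 84.6, and 2.14 CPM in blastocyst library A against 0.244 to 0.504. Nlrp2 had 108 CPM in zygote library D against 95.1 to 96.1, 0.996 CPM in 8-cell library A against at most 0.0862, and 0.896 CPM in morula library C against 0.0906 to 0.203. Nlrp14 had 40.3 CPM in 4-cell library B against 30.6 to 31.8.

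The heavy-light difference changed between consecutive stages, by the interaction tested with limma, in 4 cases: Nlrp2 by -4.69 from zygote to 2-cell embryo (adjusted p = 0.017), and Nlrp5 by -4.86, Khdc3 by 2.93 and Zbed3 by -1.96 from the 2-cell to the 4-cell embryo (adjusted p = 0.012, 0.017 and 0.0096). None of these calls was kept when only the groups compared were fitted.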

How the results depend on the processing

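No called value changed sign under any alternative run. Transcriptome calls over the 7 steps, 33 in all, numbered 32 to 36 under other tools, scalings and pseudocounts; heavy calls, 19 in all, numbered 15 to 23, the fewest with fractions 8 to 10 as the heavy side. The replicate block kept 19 of 19 calls over the 5 transcriptome steps it could use and 19 of 19 heavy calls. The 14 calls between the sides became 8 with edgeR (5 in common), 16 with the gradient as replicate block and 17 when only the gradients of a stage were fitted (2 in common), and the 4 changes of the difference became 2 with edgeR, 6 with the block and 0 when only the groups compared were fitted. Leaving out 1 gradient gave between 2 and 6 such changes, 2 without 2-cell gradient A. The 3 genes whose heavy change exceeded the transcriptome change became 5 when only the groups compared were fitted. The 3 light calls became 1 under quantile normalization and between 1 (without GV gradient B) and 2 with a gradient left out. The cause of these differences was not tested. Scaling moved the median of all genes from 0.37 to -0.08 (quantile) from zygote to 2-cell transcriptomes and from -0.51 to -0.01 on the heavy side. Fraction 1 was shallow, down to 0.0102 M reads, and Nlrp genes from the 4-cell stage on rest on few reads, so light-side values of these genes are imprecise.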

Other observations

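In 4-cell and 8-cell embryos some members had far more CPM in the fractions than in the transcriptome. The mean over the 10 fractions was 81.8 times the transcriptome mean for Tle6 at the 4-cell stage and 40.2 times at the 8-cell stage. For Zbed3 these ratios were 24.3 and 20.3, for Ooep 13.1 and 3.82 and for Padi6 12 and 7.85. In morulae they were 4.2, 0.942, 1.66 and 1.24. This was not particular to these members. The 7 oocyte markers summed to 52.0 to 63.6 CPM in 4-cell transcriptomes, against a median of 726 CPM over the fraction libraries. In 8-cell embryos these values were 40.2 to 51.3 and 368 CPM, and in morulae 24.8 to 32.6 and 29.5 CPM. The 5 markers of the 2-cell embryo went the other way at that stage, at 2061 to 2859 and 380 CPM. The ratios were not tested.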
